A study of Rattus norvegicus with 12 samples.

Results

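Interleukin-1 beta (Il1b) and the interleukin-1 receptor type 2 (Il1r2) were followed in rats given lipopolysaccharide (LPS), an outer membrane molecule of Gram-negative bacteria. Both genes were picked by their symbols in the platform annotation, and each had 1 probe, so the members were 2 of 7200 probes and 2 of 3939 named genes. They were chosen from their measured log2 ratios at 2 h and 6 h, which were known beforehand. Their own values are therefore given as a description, with no test. The study held 12 two-colour arrays of total RNA from 6 rats, 3 labelled 2 h after LPS (rats 1, 2 and 3) and 3 labelled 6 h (rats 2, 4 and 6). Each rat shared 2 arrays with RNA of the control pool for its time, called fluor (LPS RNA in channel 2) and flip (LPS RNA in channel 1). The source of the RNA is named as blood by the title alone. The sources used here do not give the strain, age and sex of the rats, the dose and route of LPS, the treatment of the controls or the number of animals in a pool.

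Interleukin-1 beta is made as an inactive precursor, mainly by monocytes, macrophages and neutrophils, after LPS has engaged Toll-like receptor 4. Caspase-1 in the inflammasome cleaves the precursor, and the released cytokine binds the type 1 receptor with its accessory protein, which signal through MyD88 and IRAK kinases to NF-kappaB and MAP kinases. The type 2 receptor binds the same cytokine but lacks the signalling domain, so it acts as a decoy, on the cell surface and in shed form. It is known to be carried by neutrophils and monocytes and to be induced by glucocorticoids and type 2 cytokines.

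In the GRCr8 gene table Il1b lies on chromosome 3 from 137030200 to 137036581 and Il1r2 on chromosome 9 from 49879928 to 49920374. The part of each transcript that the probe covers is not given in the sources used here. No promoter sequence of Il1r2 was in the sources used here, so that of Il1b alone is shown. The 250 bases before the annotated start of Il1b (RefSeq, GRCr8, chr3:137036582-137036831, minus strand) follow.
Il1b: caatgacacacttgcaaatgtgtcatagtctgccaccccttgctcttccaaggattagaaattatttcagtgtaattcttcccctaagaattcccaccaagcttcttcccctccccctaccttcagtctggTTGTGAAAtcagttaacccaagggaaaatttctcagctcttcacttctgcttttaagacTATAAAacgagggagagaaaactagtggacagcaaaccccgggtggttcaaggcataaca
Capitals mark the matches to 4 motifs searched on both strands, and no 2 matches overlapped. A C/EBP motif (TTNNGNAA) lay 119 to 112 bases before the start and was present in 37.2% of 33469 promoter windows of this length. A TATA box (TATAAA) lay 60 to 55 bases before the start and was present in 12.9% of the windows. The letters of an AP-1 motif (TGANTCA, in 6.34% of windows) and of an NF-kappaB motif (GGG, any 5 bases, then CC, in 42.3%) were not found in this window. These matches describe the sequence and are not binding sites.

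Each value below is a log2 ratio of the LPS RNA over the control pool, so 1 stands for a doubling and 0 for no difference. This reading of the sign is likely and not settled, because the labels give the channels but not the dyes or the direction of the deposited ratio. It rests on textbook LPS-induced genes, and the members themselves belong to that list. Without them, 7 of its genes were measured, and none of these passed the test below 0. That test averages the flip arrays as deposited, so it cannot settle their direction. With the flip arrays multiplied by -1, Tnf at 6 h passed below 0 (-0.18). Zfp36, Irf1 and Lcn2 had positive ratios on each of the 12 arrays. Sod2 had them on 10 (4 fluor and 6 flip), Tnf on 8 (2 and 6), Saa4 on 5 (4 and 1) and Nfkbia on 3 (3 and 0). The signs of Tnf, Saa4 and Nfkbia thus went partly with the orientation. Over all probes the 2 arrays of a rat had Pearson correlations of -0.23 to 0.25, against 0.45 to 0.65 between fluor arrays and 0.38 to 0.66 between flip arrays of different rats. The lowest of these, -0.23, was that of 2 h rat 3. If the flip arrays had been deposited unturned, the means of Il1b would be 0.30 at 2 h and 0.22 at 6 h, and those of Il1r2 0.25 and -0.09.

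Il1b stood far above its control pool at 2 h, at a mean of 3.90 ± 0.31 (SD, n = 3 rats), which is 14.9-fold. Its 2 h rats were at 4.05, 4.11 and 3.54. The fluor arrays of these rats read 4.22, 4.23 and 4.15 and the flip arrays 3.88, 3.99 and 2.94. All 6 arrays were thus high, and the flip array of rat 3 was the lowest of them. At 6 h the mean was 2.05 ± 0.13 (SD, n = 3 rats), which is 4.13-fold, with the rats at 2.13, 1.90 and 2.11. The fluor arrays read 2.50, 2.13 and 2.16 and the flip arrays 1.76, 1.67 and 2.05. The lowest array at 2 h (2.94) lay above the highest at 6 h (2.50), so the times did not overlap in rats or in arrays. The mean log2 ratio at 6 h minus that at 2 h was -1.86, so the ratio at 2 h was 3.62 times that at 6 h. This difference was -1.94 on the fluor arrays alone and -1.78 on the flip arrays alone. Each time has its own control pool, so a difference between the pools cannot be told apart from one between the rats. In 10.1% of named genes all 3 rats at 6 h lay below all 3 at 2 h, and in 11.6% all lay above. These shares are given as a background and nothing is read from them, since the ratios had chosen the members.

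**Figure D1:**
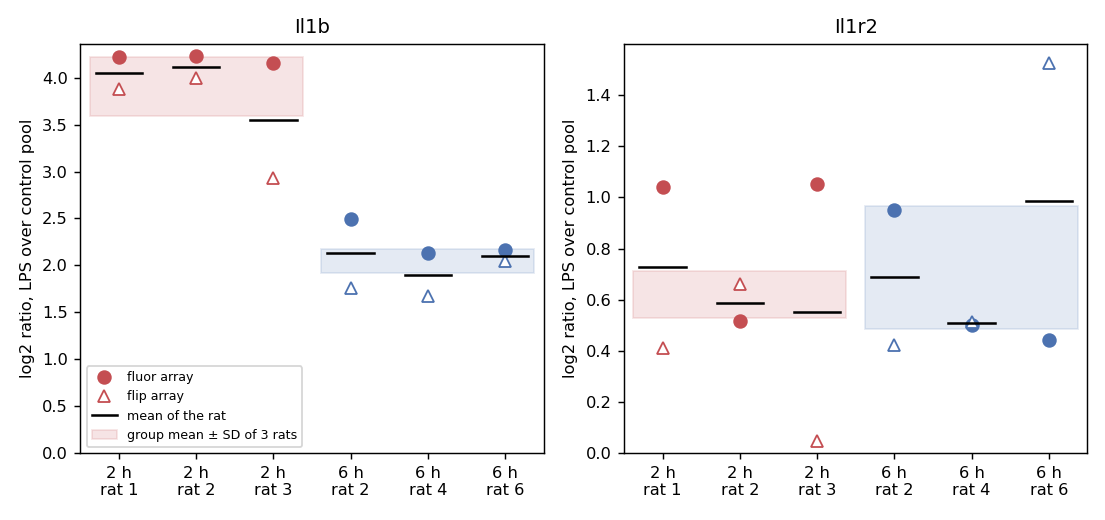
Log2 ratio of LPS over control pool (vertical axis, a separate scale for each gene) in each of 6 rats for Il1b (left) and Il1r2 (right). Filled circles are fluor arrays, open triangles flip arrays, black lines the mean of a rat and bands the group mean ± SD of 3 rats. For Il1b every 2 h array (2.94 or more) lies above every 6 h array (2.50 or less), while for Il1r2 the times overlap.

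Il1r2 was above its control pool by a smaller ratio and at a like size at both times. Its 2 h mean was 0.62 ± 0.09 (SD, n = 3 rats; 1.54-fold), with the rats at 0.73, 0.59 and 0.55. The fluor arrays at 2 h read 1.04, 0.52 and 1.05 and the flip arrays 0.41, 0.66 and 0.05. The flip array of 2 h rat 3, the lowest for Il1b too, was thus close to 0. At 6 h the mean was 0.73 ± 0.24 (SD, n = 3 rats; 1.65-fold), with rats 2, 4 and 6 at 0.69, 0.51 and 0.98. The fluor arrays at 6 h read 0.95, 0.50 and 0.44 and the flip arrays 0.42, 0.51 and 1.53. The value of 1.53, on the flip array of rat 6, stood apart from the others of its time. The rats of the times overlapped, and the mean difference of 0.10 was smaller than the SD of the 6 h rats. It was -0.24 on the fluor arrays, 0.45 on the flip arrays and -0.02 without 6 h rat 6, so its sign was not stable.

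The gap between the fluor and the flip array of 1 rat is technical, since both carry the same RNA samples. It holds any effect of the orientation that rats share as well as the spread of single arrays. For Il1b the fluor array exceeded the flip array in all 6 rats, by 0.11 to 1.22. For Il1r2 the gap ran from -1.08 in 6 h rat 6 to 1.00 in 2 h rat 3. The technical gap of Il1r2 was therefore as large as its mean ratio, whereas that of Il1b stayed below its fall between the times. No intensities were at hand to show how far each spot lay above background.

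Within each rat Il1b exceeded Il1r2. The log2 ratio of Il1b minus that of Il1r2 was 3.32, 3.52 and 2.99 for rats 1, 2 and 3 at 2 h and 1.44, 1.39 and 1.12 for rats 2, 4 and 6 at 6 h. Its mean was 3.28 ± 0.27 at 2 h and 1.32 ± 0.17 at 6 h (SD, n = 3 rats). The excess of the cytokine's ratio over that of its decoy receptor thus went from 9.71-fold to 2.49-fold, through the lower Il1b ratio at 6 h. With the flip arrays multiplied by -1 the mean would instead be 0.05 ± 0.17 at 2 h and 0.31 ± 0.25 at 6 h, so this order depends on the direction of the flip arrays. These are ratios to a pool and do not say which transcript was the more abundant.

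Among 3939 named genes the mean of Il1b was the 2nd highest at 2 h, after Csnk2b, and the 4th highest at 6 h, after Csnk2b, Prdx5 and S100a9. Il1r2 was at place 34 at 2 h and 26 at 6 h. Il1b had the lowest difference of all named genes for 6 h minus 2 h. These places rest on the likely direction: with the flip arrays multiplied by -1 Il1b would be at place 17 at 2 h, 139 at 6 h and 371 from the lowest difference, and Il1r2 at 42, 3242 and 13. The next lowest was Spink1l, which was below its pool at both times (-0.39 and -2.04). Of 14 genes with a 2 h mean of at least 1, Il1b, Tf (transferrin, from 1.44 to 0.27) and Snx12 (a sorting nexin, from 1.82 to 0.73) were lower by 1 or more at 6 h. Of the other large ratios S100a9 went from 2.98 to 2.70 and Anxa1 from 2.65 to 1.94, while Csnk2b, Prdx5, Gzmc, Aldoc and Rnf112 were higher at 6 h.

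**Figure D2:**
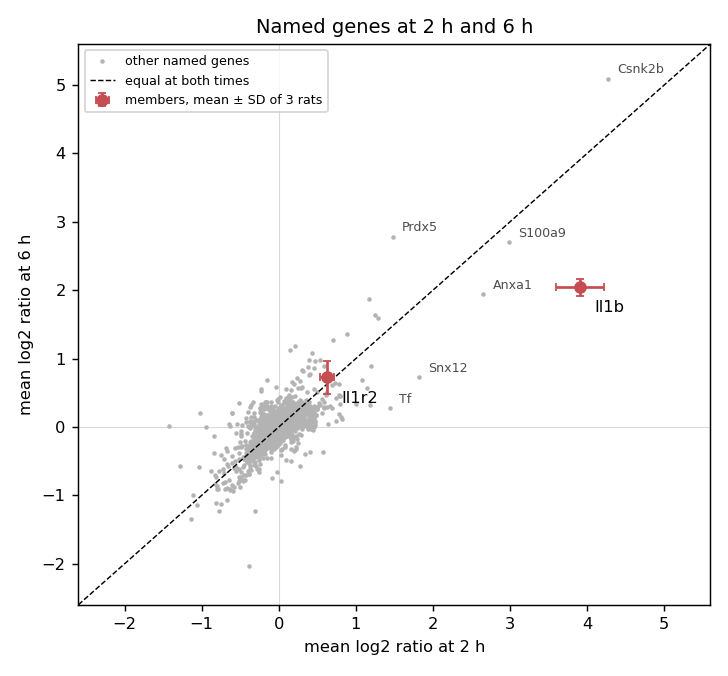
Mean log2 ratio of 3939 named genes at 2 h (horizontal) and 6 h (vertical), with n = 3 rats per time. The members are in red with bars of ± SD, and the dashed line marks equal ratios: Il1b (3.90 and 2.05) lies well below it and Il1r2 (0.62 and 0.73) near it.

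The spots numbered next to the members did not share their ratios. Of the 8 probes within 4 numbers of the Il1b probe, 7 stayed between -0.41 and 0.37 on every array. The other, the probe just before it, belongs to the interferon-induced GTPase Mx2 and averaged 0.24 in the earlier and 0.72 in the later group, with its highest arrays (1.51 and 1.28) in 6 h rat 4. Il1b in that rat was at 1.90, the lowest of its time. The 8 probes around Il1r2 ran from -0.22 to 0.44. Neither member stood at the value that 242 to 298 probes of an array share.

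The profile of a gene over the 6 rats was compared with that of each member by cosine similarity, which is 1 where 2 profiles are proportional. The 155 other genes with a root mean square of at least 0.5 were ranked. The closest to Il1b were Snx12 (0.991), the cytochrome P450 gene Cyp2f4 (0.984), the actin regulator Vasp (0.980), the calcium channel Ryr1 (0.979) and the metalloproteinase inhibitor Timp2 (0.976). All 5 had a lower mean at 6 h than at 2 h, as likeness to Il1b implies: Timp2 went from 1.18 ± 0.05 to 0.32 ± 0.06, Ryr1 from 0.69 ± 0.09 to 0.27 ± 0.09 and Vasp from 1.08 ± 0.28 to 0.69 ± 0.23 (SD, n = 3). The closest to Il1r2 were the coatomer subunit Copa (0.980), the phosphodiesterase Pde2a (0.980), the aldolase Aldoc (0.977), the cytochrome P450 gene Cyp4f1 (0.973) and Rnf112 (0.973). Copa went from 0.72 ± 0.17 to 0.64 ± 0.09 and Cyp4f1 from 0.78 ± 0.07 to 0.63 ± 0.16, whereas Pde2a, Aldoc and Rnf112 were higher at 6 h. Pde2a (probe 855) is numbered close to Aldoc (probe 853), and Rnf112 (probe 1047) to Csnk2b (probe 1043). Ranked over the 12 arrays instead, the 5 genes named for Il1b held places 2 to 13 and those for Il1r2 places 1 to 15. The cosine is not centred on a mean, so 2 genes above 0 in every rat score high, as Il1b and Il1r2 did (0.911). The points share 1 control pool per time.

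**Figure D3:**
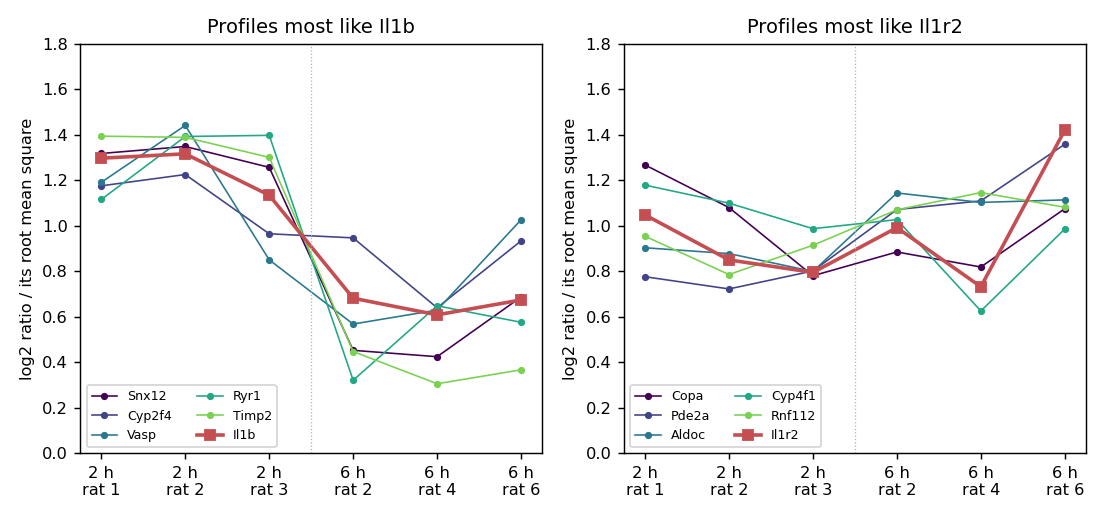
Log2 ratio of each gene divided by its own root mean square (vertical axis) in the 6 rats, for Il1b and its 5 closest genes (left) and Il1r2 and its 5 closest (right). Lines only join the values of 1 gene. The genes near Il1b are lower on average in the 6 h rats, and those near Il1r2 show no common shift.

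The rest of the interleukin-1 system was taken from 8 lists of ligands, receptors, maturation, signalling, transcription, mRNA decay, glucocorticoid and type 2 cytokine, and target genes. The lists were chosen with earlier results of these data known, so their counts are set beside all genes as a description only. Of 144 listed genes other than the members 38 were measured. They were tested with limma on the means of the rats, so p-values measure the spread between these rats, and were adjusted by Benjamini-Hochberg over all 3939 genes. At 2 h 8 were higher and 4 lower than the pool (1 of the lower, Pla2g2a, mostly on a value that many probes of an array share), where 9.34% of all named genes were higher and 9.82% lower. At 6 h 8 were higher and 2 lower, where 8.30% of all were higher and 10.7% lower. The lists' median was 0.012 at 2 h and 0.039 at 6 h, beside -0.0070 and 0.0069 for all genes. For 6 h minus 2 h limma passed 0 of the 38, where 0.330% of all were higher and 0.178% lower, and 11 had an unadjusted p under 0.05. The 2 h count was 4 without 2 h rat 2, and the 6 h count was 3 without 6 h rat 2 and 6 without 6 h rat 6. On the flip arrays alone the 2 h calls of Sigirr, Gsdmd, Map2k3, Map2k6, Mapk14 and Pla2g2a and the 6 h call of Mapk14 ended. On the fluor arrays alone those of Cebpd at 2 h, Tlr4 and Tnf at 6 h and Dusp1 at both times ended. With the flip arrays multiplied by -1, Map2k3 at 2 h and Nr3c1 and Zfp36 at 6 h passed with the same sign. Cebpd at 2 h and Tnf at 6 h passed there with the opposite sign.

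**Figure D4:**
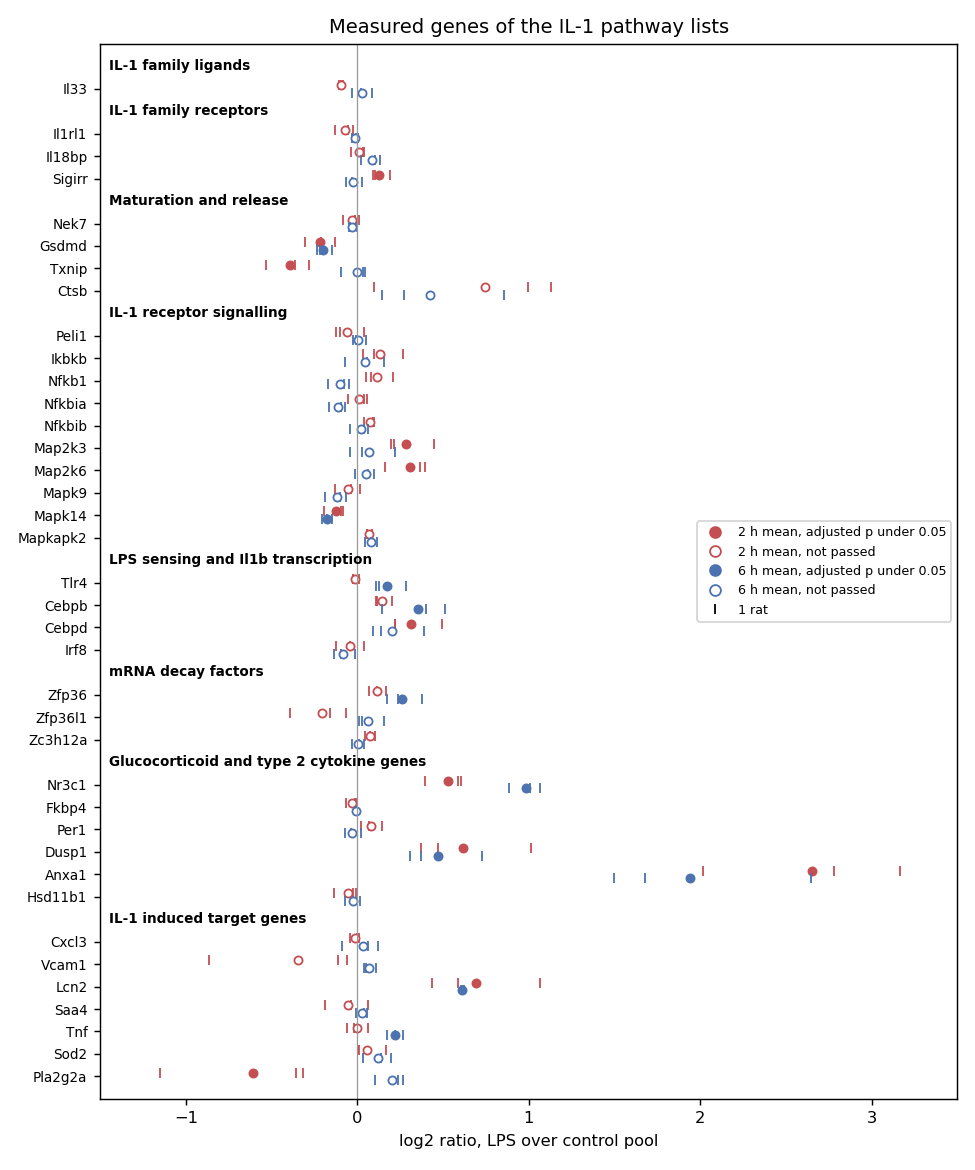
Mean log2 ratio at 2 h (red) and 6 h (blue) of the 38 measured genes of the interleukin-1 lists, by list, with ticks for the 3 rats of a time. Filled circles passed limma at an adjusted p under 0.05, and Pla2g2a stands at a value shared by many probes on 11 of 12 arrays. Anxa1, Nr3c1, Dusp1 and Lcn2 are filled on the right at both times, and most genes lie within 0.5 of 0.

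Of the ligands, Il33, an alarmin of the family, was the only one measured besides Il1b. It was at -0.10 ± 0.01 at 2 h (adjusted p = 0.0738) and 0.03 ± 0.06 at 6 h (SD, n = 3; adjusted p = 0.566). Among 3 receptors or binding proteins besides Il1r2, Sigirr, an inhibitory receptor of the family, was higher at 2 h (0.13 ± 0.05, adjusted p = 0.0402), with its rats at 0.09, 0.19 and 0.10. Of all named genes 9.34% were higher at 2 h. The Sigirr call ended without any 1 of 5 of the 6 rats, and at 6 h Sigirr was at -0.02 ± 0.05 (adjusted p = 0.630). The interleukin-33 receptor Il1rl1 was at -0.07 ± 0.06 and -0.01 ± 0.02 and the interleukin-18 binding protein Il18bp at 0.01 ± 0.04 and 0.08 ± 0.06, none past the test. Il1r2 was chosen by its own ratios, so its larger means beside these are no finding about the family. Of 10 listed receptors or binding proteins other than Il1r2, only these 3 were measured.

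Of 4 measured maturation and release genes 2 were lower at 2 h and 1 at 6 h, where 9.82% and 10.7% of all named genes were lower. Txnip, a thioredoxin inhibitor that can bind NLRP3, fell at 2 h (-0.39 ± 0.13, adjusted p = 0.00397), with its rats at -0.28, -0.53 and -0.36, and was at -0.0042 ± 0.0780 at 6 h. Gsdmd, whose cleaved protein forms the pore through which interleukin-1 beta leaves the cell, was lower at both times (-0.21 ± 0.09, adjusted p = 0.0125, and -0.20 ± 0.05, adjusted p = 0.0144). The Gsdmd call ended without 2 h rat 2 and, at 6 h, without rat 2 or rat 4. Ctsb, a lysosomal cathepsin, was at 0.74 ± 0.56 at 2 h (adjusted p = 0.0505), with its rats at 0.10, 1.13 and 1.00. Nek7, a partner of NLRP3, was at -0.03 at both times.

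Of 10 measured signalling genes downstream of the type 1 receptor, 3 passed at 2 h and 1 at 6 h, none with a size above 0.31. Among all named genes 9.34% were higher and 9.82% lower at 2 h, and 8.30% and 10.7% at 6 h. The MAP kinase kinases Map2k6 (0.31 ± 0.13, adjusted p = 0.00785) and Map2k3 (0.29 ± 0.14, adjusted p = 0.0264) rose at 2 h. Mapk14, the p38 kinase that both activate, fell at 2 h (-0.13 ± 0.06, adjusted p = 0.0418) and at 6 h (-0.18 ± 0.03, adjusted p = 0.0124). Without 2 h rat 2 none of the 2 h calls of these 3 genes held, that of Map2k3 also ended without 2 h rat 1 or rat 3, that of Mapk14 without any 1 of the 6 rats, and that of Mapk14 at 6 h without rat 2 or rat 6 of that time. The flip arrays alone put Map2k3 at 0.14 (adjusted p = 0.240), Map2k6 at 0.21 (adjusted p = 0.0655) and, at 6 h, Mapk14 at -0.10 (adjusted p = 0.234). Nfkb1 (0.11 ± 0.08 and -0.10 ± 0.06), Nfkbia (0.01 ± 0.06 and -0.11 ± 0.05), which encodes the NF-kappaB inhibitor, and Ikbkb (0.13 ± 0.12 and 0.05 ± 0.11), which encodes its kinase, did not pass.

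Of 4 measured genes for LPS sensing or for factors known to act on Il1b transcription, Cebpd rose at 2 h (0.31 ± 0.16, adjusted p = 0.0303), but not without any 1 of the 2 h rats. At 6 h Cebpb (0.35 ± 0.19, adjusted p = 0.0120) and the LPS receptor Tlr4 (0.17 ± 0.09, adjusted p = 0.0247) rose. Of all named genes 9.34% were higher at 2 h and 8.30% at 6 h. The Cebpb call ended without rat 2 or rat 6, and that of Tlr4 without any 1 of the 6 h rats. With the median of its numbered neighbours subtracted Tlr4 was at -0.018. Of 3 mRNA decay factors Zfp36 (tristetraprolin), which binds AU-rich elements of cytokine transcripts, rose at 6 h (0.26 ± 0.11, adjusted p = 0.00814), with its rats at 0.38, 0.17 and 0.24. At 2 h Zfp36 was at 0.12 ± 0.05 (adjusted p = 0.107), and its 6 h call held without any 1 rat. Zc3h12a (regnase-1) was at 0.07 and 0.0064, and Zfp36l1 at -0.21 and 0.07, neither past the test.

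Of 6 genes on the list of glucocorticoid and type 2 cytokine genes, the same 3 rose at both times. Among all named genes 9.34% were higher at 2 h and 8.30% at 6 h. Anxa1, an anti-inflammatory annexin that glucocorticoids induce, stood at 3.17, 2.78 and 2.02 in rats 1, 2 and 3 at 2 h and at 2.64, 1.50 and 1.68 in rats 2, 4 and 6 at 6 h (means 2.65 ± 0.58, adjusted p = 0.00120, and 1.94 ± 0.62, adjusted p = 0.00372). Nr3c1, the glucocorticoid receptor, was at 0.59, 0.61 and 0.39 at 2 h (adjusted p = 0.00120) and at 1.07, 1.01 and 0.88 at 6 h (adjusted p = 9.2e-05). The 6 h rats of Nr3c1 all lay above the 2 h rats, by 0.46 ± 0.08 on average (SE), which missed the threshold (adjusted p = 0.0594). Dusp1, a phosphatase of MAP kinases, was at 0.62 ± 0.34 (adjusted p = 0.0199) and 0.47 ± 0.22 (adjusted p = 0.0463), a call that ended without rat 2 at 2 h and without any 1 of the 6 h rats, and at 6 h also without 2 h rat 3. The clock gene Per1, also induced by glucocorticoids, was at 0.08 and -0.03, and Fkbp4 and Hsd11b1 were within 0.06 of 0, none past the test.

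Of 7 target genes that interleukin-1 is known to induce, Lcn2 (lipocalin 2) rose at both times. Its rats were at 0.59, 0.43 and 1.06 at 2 h (adjusted p = 0.00586) and at 0.61, 0.60 and 0.62 at 6 h (adjusted p = 0.00856), the latter call ending without 6 h rat 2 and after scaling of the arrays. Of all named genes 9.34% were higher at 2 h and 8.30% at 6 h. The Lcn2 probe (1045) is numbered close to that of Csnk2b (1043), which had the highest mean at both times. Tnf was at -0.0037 ± 0.0624 at 2 h (adjusted p = 0.948) and rose at 6 h to 0.22 ± 0.05 (adjusted p = 0.00636), a call lost without 6 h rat 2 and on the fluor arrays alone (0.038). Pla2g2a, a secreted phospholipase, passed at 2 h (-0.61, adjusted p = 0.0336), but on 11 of 12 arrays its value was the one that many probes of the array share, so it is not read as a measurement of the gene. Its 1 other value was -2.61, on the fluor array of 2 h rat 3. Sod2 (0.06 and 0.12), Cxcl3 (-0.01 and 0.03), Saa4 (-0.05 and 0.03) and Vcam1 (-0.34 ± 0.45 and 0.07 ± 0.04) did not pass.

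Markers of blood cell types moved beside these ratios, unevenly within each list. Of 27 measured markers limma passed 9 higher and 7 lower at 2 h, and 5 higher and 7 lower at 6 h. Of all named genes 9.34% were higher and 9.82% lower at 2 h, and 8.30% and 10.7% at 6 h. The mean over 5 measured neutrophil markers was 0.71 to 0.93 in the 2 h rats and 0.44 to 0.73 in the 6 h rats, but S100a9 (2.98 ± 0.53 and 2.70 ± 0.44) carried it. The median marker was at 0.57 at 2 h and -0.03 at 6 h, where 2 of the 5 were above 0. S100a9 and Lcn2 rose at both times, Chi3l1 rose at 2 h (0.57) and was at -0.37 at 6 h, Hdc fell at 2 h, and S100a8 was at -0.08 and -0.05. Lcn2 is also counted among the target genes above. The mean over 3 monocyte and macrophage markers was -0.29 to -0.15 in the 2 h rats and -0.29 to -0.11 in the 6 h rats. Of these C1qb fell at both times and C1qc at 6 h, while Lyz2 was at -0.07 and -0.01. The mean over 4 T cell markers was -0.35 to -0.26 at 2 h and -0.40 to -0.14 at 6 h, and Cd3d and Lef1 fell at both times. That over 3 B cell markers was -0.25 to -0.15 and -0.24 to 0.0015, where Cd37 fell at both times (-0.45 and -0.71), Blnk fell at 2 h and Cd24 rose at 6 h (0.41). The mean over 3 NK and cytotoxic markers was 0.44 to 0.61 and 0.64 to 0.78, carried by the granzyme Gzmc (1.17 and 1.87), with Il2rb at 0.42 and -0.03 and Prf1 at 0.0095 and 0.27. The platelet markers averaged 0.07 to 0.38 and -0.42 to -0.03 (Pf4 at 0.34 and -0.39) and the erythroid markers 0.12 to 0.41 and -0.01 to 0.24. Their part in the ratios of Il1b and Il1r2 was not tested, and in bulk RNA a change in the number of cells cannot be told apart from one in RNA per cell. The ratios carry no level of a transcript, so the labelled tissue could not be checked against its markers.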

How the data were processed

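The deposited table holds a log2 ratio for each of 7200 probes on 12 arrays, with 0 missing values and 1 column for each array, per the file headers. The sources used here do not give the dyes, scanner, background correction or normalization. The base was settled from the values: their powers of 2 under 5 were whole multiples of 0.0001, within 0.05 of a step, in 100% of cases, against at most 12.9% for other bases. Array medians lay between -0.020 and 0.0083 and SDs between 0.27 and 0.48. Whether the arrays had been centred before deposit is not stated. The number of arrays limits the precision.

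Symbols came from the platform annotation of 2007, updated through gene identifiers in GRCr8: 4190 probes had 1 symbol (4184 matched), 46 several and 2964 none. Probes of 1 gene were averaged (236 genes had more than 1). The 2 arrays of each rat were averaged, so the rat was the replicate. Rat means were fitted across all 3939 genes with limma 3.58.1 in R 4.3.3 (lmFit, eBayes, 1 model of group means, 4 residual degrees of freedom, two-sided). The contrasts were 2 h and 6 h against 0 and 6 h minus 2 h, and the threshold was 0.05 after Benjamini-Hochberg adjustment. The pool counts as 1 control sample whose own spread is left out of the tests. The fit was also run on simulated data, with independent normal noise for each rat. Those data held no shared pool and no effect of orientation, so the run says nothing about either. Members and lists were chosen with earlier results of these data known. Named genes are the members, the measured ligands and receptors, list genes that passed, the 5 closest profiles per member and numbered neighbours within 4. The turned ranks and the count of arrays on which a gene holds the value that many probes share were added after the data were seen. Genes named beyond that rule were chosen after their values were seen. Whether the rats numbered 2 at the 2 times are 1 animal is not stated, and they were treated as different.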

Additional observations from a re-analysis of the deposited data

Results flagged for a closer look

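In 4 list genes every rat of one time lay above 0 and every rat of the other below 0. The share of all named genes that meet this rule was not counted, so nothing is read from the number. By the looser rule of no overlap, all 3 rats at 6 h lay below those at 2 h in 10.1% of named genes and above in 11.6%. For Nfkb1 the 6 h minus 2 h difference was -0.21, for Zfp36l1 0.27, for Vcam1 0.41 and for Pla2g2a 0.81. The limma test of the difference passed none of them (adjusted p = 0.173, 0.228, 0.421 and 0.150). Pla2g2a was at the value shared by many probes on 11 of 12 arrays, so its difference is not read as one of the gene.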

How the results depend on the processing

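The ratios of Il1b kept their sign in every alternative run. With the flip arrays multiplied by -1 they were 0.30 at 2 h, 0.22 at 6 h and -0.080 for the difference. Scaling gave 4.31, 1.92 and -2.39, and quantile normalization -1.54 for the difference. At 6 h the fluor arrays alone put Il1b at 2.26 and the flip arrays at 1.83. Leaving out 1 rat gave 3.80 to 4.08, 2.00 to 2.12 and -2.04 to -1.75. Il1r2 at 2 h was at 0.87 on the fluor arrays, 0.37 on the flip arrays, 0.25 with the flip arrays turned and 0.76 after quantile normalization. At 6 h it was -0.094 with the flip arrays turned. Its difference was -0.24 on the fluor arrays, 0.45 on the flip arrays and -0.34 with the flip arrays turned. Leaving out 1 rat gave 0.57 to 0.66, 0.60 to 0.84 and -0.025 to 0.21. The cause was not tested.

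The count of 12 list genes at 2 h was 7 on the flip arrays and 7 with them turned, and 4 to 11 with 1 rat left out. The 10 at 6 h became 19 on the flip arrays and 3 to 10 with 1 rat left out. Of the 0 for 6 h minus 2 h, scaling gave 1 (Txnip), a fit of single arrays with dye as a term and rats as random blocks 2 (Nr3c1, adjusted p = 0.0103, and Txnip, 0.0321), and leaving out 1 rat 0 to 1 (Pla2g2a). With the flip arrays turned the sign reversed for Cebpd (-0.097), Dusp1 (-0.094 and -0.10), Lcn2 at 2 h (-0.15), Tlr4 (-0.075) and Tnf (-0.18). Pla2g2a was at 0.017 on the flip arrays and, with the value shared by many probes of an array set to missing, at -2.61 from 1 array, and Tlr4 at -0.018 with neighbours subtracted. Of 12 calls at 2 h 4 held without any 1 rat (Anxa1, Nr3c1, Lcn2 and Txnip), and of 10 at 6 h 3 (Anxa1, Nr3c1 and Zfp36). No paired analysis was possible because the times share 1 rat number only. Without intensities no filter on dim spots could be tried.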
